A study of Homo sapiens with 6 samples.

Results

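Solute carriers are the membrane proteins that move ions, sugars, amino acids, nucleotides and other small molecules across the plasma membrane and the membranes of mitochondria, lysosomes and other organelles. Here they were followed in U87 cells, a human glioblastoma line, after depletion of the zinc finger protein ZNF768. The 17 genes were selected on symbol and level, namely every gene whose whole platform symbol reads SLC, digits, A, digits and whose mean log2 expression value over all 6 arrays lay at or above the median of all probesets, 6.42. SLC7A11 was set aside by the rule. The 17 genes belong to 11 SLC numbers, out of 14884 named genes and out of 10590 named genes at or above that level. All 17 carriers that the platform's annotation names passed the level, so none lay outside it, and the nearest inside were SLC25A2 at 6.73, SLC60A1 at 6.89 and SLC49A3 at 7.65. RefSeq lists 347 symbols of this form, and the other 330 had no probeset named in the platform's annotation and enter no count or test. The set is therefore a small part of the superfamily. Of the 17 genes, 10 carried an MFSD symbol before, for the major facilitator superfamily domain, and 3 a PQLC symbol, for the PQ-loop repeat. None of the well-known glucose, lactate and amino acid carriers, such as SLC2A1 (GLUT1), was among them.

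Both groups were U87 cells, and RNA was taken 96 h after infection and selection. One group consisted of 3 control samples, whose construct the labels do not name, and the other of 3 samples infected with lentiviruses to knock down ZNF768. The labels call the samples biological replicates of a single cell line, and the sources used here do not say which ZNF768 hairpin was used for the arrays. Expression was measured on 6 arrays of 1 colour, as log2 values from Robust Multichip Average (RMA), whose medians per array lay between 6.40 and 6.44. The number of arrays limits the precision. ZNF768 itself was at 8.49, 8.54 and 8.54 in control samples and at 7.02, 7.14 and 7.31 in ZNF768 depleted samples, a log2 difference of -1.36 (SE 0.0851, limma adjusted p = 0.00015). Among glial markers, VIM and CD44 were high in every sample although both fell, as did NES, GFAP and OLIG2 lay just above the median of all probesets and AQP4, S100B and SOX2 lay below it. The summed level of the 8 glial markers was 12.6 on the log2 scale in control samples and 11.94 to 12.03 in ZNF768 depleted samples. The summed level of 8 myeloid markers was 12.9 in control samples and 10.4 to 10.5 in ZNF768 depleted samples, with 4 of 8 past the test and all 4 lower (CD68, EVI2B, CSF1R and LAPTM5), beside 22.6% of all genes at or above the level. CD68 alone went from 12.73 to 9.62 in the mean and made up most of the sum in both groups, TYROBP was at 7.07 and 7.10 and CD14 at 5.89 and 6.09 without passing the test, and CD14, CD163 and LYZ lay below the median of all probesets in the mean over the arrays. Over all genes at or above the level, 21.7% rose and 22.6% fell. The planned marker lists also held PTPRC, AIF1, ITGAM and FCER1G (myeloid), FABP7 and ALDH1L1 (glial), CDH1 (epithelial) and CDH5 (endothelial). None of them had a probeset named here. Of the 8 glial markers 3 fell, of 4 epithelial markers none passed the test, and of 3 endothelial markers KDR fell. The part of these shifts in the carrier results was not tested. These were bulk samples of a single cell line, where fewer cells with a transcript and less of it per cell cannot be told apart.

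The SLC names cover families of unrelated ancestry that share a task. SLC25 proteins exchange metabolites across the inner membrane of mitochondria, SLC38 proteins carry small neutral amino acids, and SLC66 includes a carrier of the lysosomal membrane, SLC66A1. Many of the higher numbers (SLC49, SLC60, SLC61, SLC67, SLC68, SLC71 and SLC75) were given to proteins of the major facilitator superfamily, which carry a solute by rocking between states open to either side of the membrane, and several of them have no known substrate.

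The carriers changed in both directions. At a limma adjusted p under 0.05 over all probesets, 5 of the 17 rose and 6 fell in ZNF768 depleted cells, and the other 6 missed that threshold. Those shares are 29.4% and 35.3%, beside 21.7% and 22.6% of all 10590 genes at or above the same level. The rises were small, from 0.25 to 0.71 on the log2 scale, and the falls ran from -0.38 to -1.22. The falls by at least 1.5-fold were in SLC38A12, SLC75A1, SLC25A15, SLC71A2 and SLC33A2, and the rise by at least 1.5-fold was in SLC67A2. Past a 2-fold difference and the test there was a single carrier, SLC38A12, beside 652 of the 10590 genes. The median difference over the 17 carriers was -0.07 against 0.04 over all genes at that level, and the median size of the difference regardless of sign was 0.38 against 0.23. The groups did not overlap in 16 of 17 carriers (94.1%, beside 64.6% of all genes at that level), 8 of them higher and 8 lower after ZNF768 depletion. SLC66A3 was the exception.

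**Figure D1:**
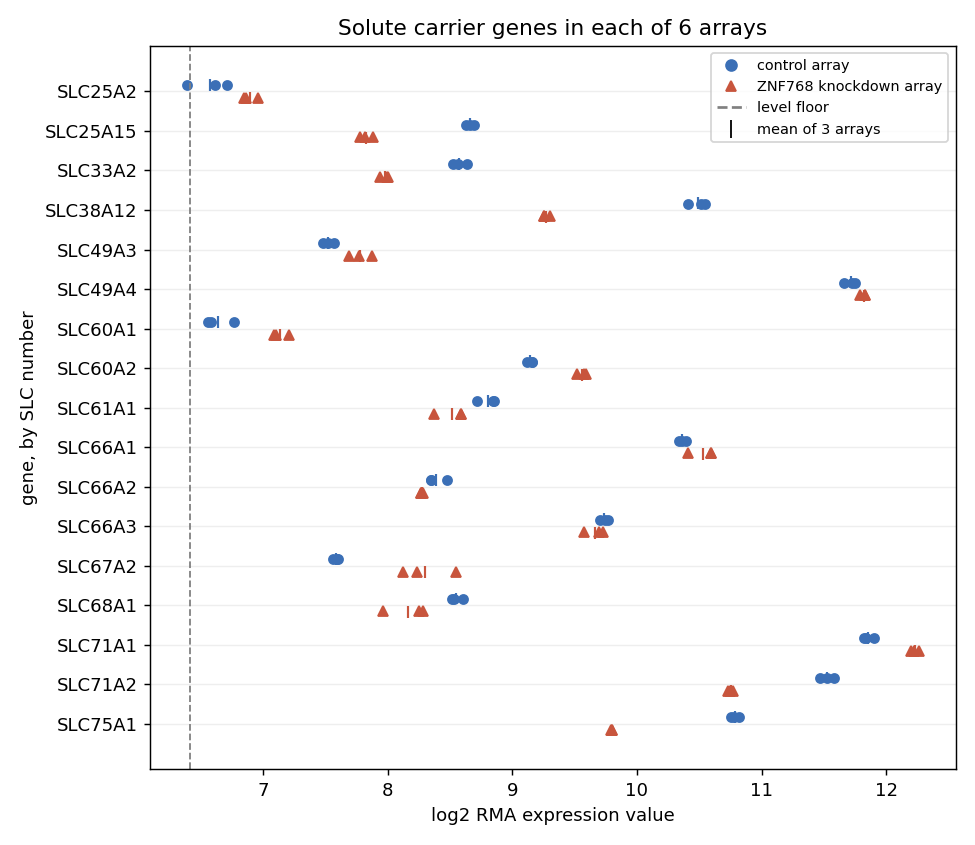
Log2 RMA expression value (x axis) of each of the 17 carriers (y axis, in order of SLC number) in 3 control arrays (circles) and 3 ZNF768 knockdown arrays (triangles). Short vertical lines are group means and the dashed line is the median of all probesets, 6.42. SLC38A12 drops from 10.49 to 9.27 in the mean, and SLC71A1 and SLC71A2 part from each other.

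The largest fall among the 17 was in SLC38A12 (formerly TMEM104), placed by its number in the family of sodium-coupled neutral amino acid carriers. It was at 10.51, 10.55 and 10.41 in control samples and at 9.26, 9.25 and 9.31 in ZNF768 depleted samples. Every depleted sample lay more than 1 log2 unit below every control sample, with a gap of 1.10 between the closest ones. The difference was -1.22 (SE 0.0619, 95% interval -1.37 to -1.07, limma adjusted p = 7.36e-05), that is 2.33-fold lower. Ranked by fall, SLC38A12 stood at place 335 of the 10590 genes, so many genes outside the superfamily fell further.

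SLC75A1 (formerly MFSD10, also TETRAN) takes its older name from its likeness to bacterial tetracycline transporters. Its values were 10.82, 10.78 and 10.76 in control samples and 9.79, 9.80 and 9.80 in ZNF768 depleted samples. The 3 depleted samples were nearly equal, with an SD of 0.0058, and lay far under the control range. The difference was -0.99 (SE 0.0523, limma adjusted p = 8.46e-05), a 1.98-fold fall just short of 2-fold.

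Of the 2 mitochondrial ornithine carriers, SLC25A15 fell past the test and SLC25A2 did not pass it. SLC25A15 imports ornithine into mitochondria for the urea cycle, and its loss causes a hereditary hyperornithinemia. It was at 8.66, 8.63 and 8.69 in control samples and at 7.88, 7.82 and 7.78 in ZNF768 depleted samples, so that every depleted sample was clearly lower. The difference was -0.84 (SE 0.0565, limma adjusted p = 0.000204). SLC25A2, its close paralog with ornithine carrier activity, stood near the lower limit of the set, at 6.71, 6.62 and 6.39 in control samples and 6.85, 6.96 and 6.87 in ZNF768 depleted samples. The depleted samples were higher without overlap, yet the difference of 0.32 (95% interval 0.09 to 0.55) did not pass the test (limma adjusted p = 0.0581), and 1 control sample lay under the level used for selection. Without control replicate 1 it did pass, at 0.39 with limma adjusted p = 0.0424. How far the probes of the 2 paralogs tell their transcripts apart was not examined.

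In SLC71, both paralogs passed the test, in opposite directions. SLC71A1 (formerly MFSD14A, also HIAT1) is an orphan carrier that is needed for sperm formation in mouse, and SLC71A2 (formerly MFSD14B) is its paralog. SLC71A1 had the highest mean of the 17 probesets and was at 11.84, 11.82 and 11.91 in control samples and at 12.20, 12.26 and 12.23 in ZNF768 depleted samples. It rose by 0.37 (SE 0.0557, limma adjusted p = 0.00419), with all depleted samples above all control samples. SLC71A2 was at 11.58, 11.47 and 11.52 in control samples and at 10.75, 10.77 and 10.73 in ZNF768 depleted samples. It fell by 0.77 (SE 0.0574, limma adjusted p = 0.000278), again without overlap. Both probesets were among the brightest on the arrays, at percentiles 98.6 and 96.7 of the mean level.

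**Figure D2:**
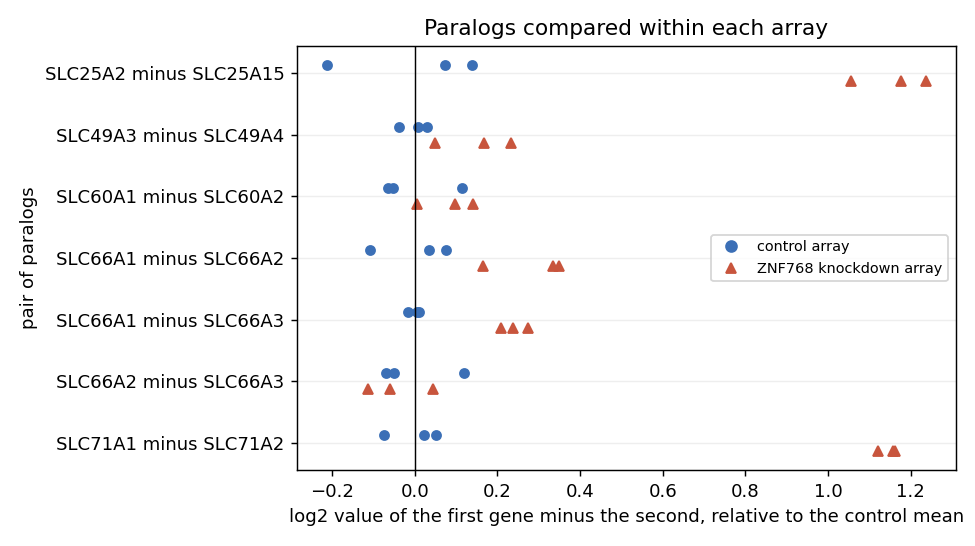
Log2 value of a gene minus that of its paralog within each array, shifted so that the mean of the 3 control arrays is 0 (x axis), for the 7 pairs with the same SLC number (y axis). Circles are control arrays and triangles ZNF768 knockdown arrays. The mean of the knockdown arrays sits at 1.16 for SLC25A2 minus SLC25A15 and at 1.15 for SLC71A1 minus SLC71A2, and at 0.28 or less in the other pairs.

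The 7 pairs of paralogs with the same SLC number were compared within each array, since a difference of log2 values between 2 probesets can be followed across samples although it says nothing of which transcript is more abundant. SLC71A1 minus SLC71A2 was 0.26, 0.35 and 0.38 in control samples and 1.45, 1.49 and 1.49 in ZNF768 depleted samples, a shift of 1.15 (SE 0.0409). SLC25A2 minus SLC25A15 shifted by 1.16 (SE 0.12), from -1.95, -2.02 and -2.30 to -1.03, -0.85 and -0.91. Both shifts were many times their SE, with no overlap between groups. The difference SLC66A1 minus SLC66A2 shifted by 0.28 (SE 0.0811), SLC66A1 minus SLC66A3 by 0.24 (SE 0.0207) and SLC49A3 minus SLC49A4 by 0.15 (SE 0.0571), also without overlap. For these 5 pairs the exact two-sided permutation test gave p = 0.1, the smallest that 3 against 3 samples allow, and 0.14 after Benjamini-Hochberg adjustment over the 7 pairs, so the design cannot reach 0.05 for a single pair. SLC60A1 and SLC60A2 rose alongside each other, with a shift between them of 0.08 (SE 0.07, exact p = 0.3), and SLC66A2 and SLC66A3 shifted by -0.04 (SE 0.0754, exact p = 0.6).

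The SLC60 genes were the only number with several measured members in which every member rose. SLC60A2 (formerly MFSD4B, also NaGLT1) was first described in rat kidney as a sodium-dependent glucose transporter. It was at 9.12, 9.16 and 9.16 in control samples and 9.58, 9.59 and 9.52 in ZNF768 depleted samples, a rise of 0.42 (SE 0.0538, limma adjusted p = 0.00234). Control and depleted samples stood in 2 tight groups, with a gap of 0.36 between the closest ones. SLC60A1 (formerly MFSD4A), its paralog, was dim, at 6.56, 6.77 and 6.58 against 7.21, 7.09 and 7.11, and rose by 0.50 (SE 0.0777, limma adjusted p = 0.00505).

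SLC67A2 (formerly MFSD9), an orphan carrier of the major facilitator superfamily, had the largest rise of the set. Its control values were 7.60, 7.57 and 7.60, and its values after ZNF768 depletion were 8.24, 8.13 and 8.55. All depleted samples were higher, but replicate 3 stood above the other 2, and the SD of 0.219 was the largest within any group of the 17 genes (median 0.0461). The difference was 0.71 (SE 0.112, 95% interval 0.44 to 0.99, limma adjusted p = 0.00521), 1.64-fold.

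SLC33A2 and SLC68A1 fell as well. SLC33A2 (formerly MFSD3), a relative of the acetyl-CoA transporter SLC33A1, was at 8.64, 8.52 and 8.57 in control samples and at 7.994, 7.9995 and 7.942 in ZNF768 depleted samples. It fell by 0.60 (SE 0.0587, limma adjusted p = 0.000784), with a clear gap between the groups. SLC68A1 (formerly MFSD13A, also TMEM180) has been described as a surface antigen of colorectal cancer cells. It was at 8.60, 8.53 and 8.52 in control samples and at 7.96, 8.25 and 8.29 in ZNF768 depleted samples, where replicate 1 was the lowest. The fall of 0.38 (SE 0.097, limma adjusted p = 0.0342) lost the call when ZNF768 knockdown replicate 2 or any 1 of the 3 control samples was left out, with adjusted p = 0.0608, 0.0953, 0.0897 and 0.081 in that order.

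SLC49A3 (formerly MFSD7) is a relative of the heme exporter FLVCR1, and SLC49A4 (formerly DIRC2) is a lysosomal membrane carrier whose gene is disrupted in a hereditary renal carcinoma. SLC49A3 was at 7.57, 7.48 and 7.52 in control samples and at 7.69, 7.87 and 7.77 in ZNF768 depleted samples. Its rise of 0.25 (SE 0.0683, limma adjusted p = 0.0428) was the weakest call of the set and was lost on leaving out any 1 sample other than ZNF768 knockdown replicate 1, with adjusted p of 0.0679 to 0.127. It was also lost with arrays centred on their median (adjusted p = 0.0638) and with cyclic loess (0.0658). SLC49A4, far brighter, was at 11.73, 11.66 and 11.75 against 11.83, 11.83 and 11.79. All depleted samples were slightly higher, and the difference of 0.10 (95% interval -0.03 to 0.24, limma adjusted p = 0.245) did not pass the test.

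The 3 SLC66 genes, with PQ-loop repeats, did not pass the test, and their intervals leave room for only small differences. SLC66A1 exports cationic amino acids from the lysosome. It was at 10.40, 10.34 and 10.36 in control samples and at 10.59, 10.41 and 10.59 in ZNF768 depleted samples, where replicate 2 came within 0.0092 of the highest control sample. The difference was 0.17 (95% interval -0.01 to 0.34, limma adjusted p = 0.163). SLC66A2 was at 8.35, 8.47 and 8.35 against 8.29, 8.27 and 8.27 (difference -0.12, 95% interval -0.26 to 0.03, limma adjusted p = 0.23). SLC66A3 was at 9.77, 9.70 and 9.75 against 9.69, 9.57 and 9.73, and its groups overlapped (difference -0.07, 95% interval -0.23 to 0.08, limma adjusted p = 0.475).

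SLC61A1 (formerly MFSD5) is a carrier of molybdate, the metal oxyanion from which the molybdenum cofactor is built. It was at 8.85, 8.85 and 8.72 in control samples and 8.37, 8.59 and 8.59 in ZNF768 depleted samples. All depleted samples were lower, but the difference of -0.29 (95% interval -0.49 to -0.09) narrowly missed the threshold at limma adjusted p = 0.0527. It passed under 6 of 22 other settings, among them arrays centred on their median (-0.32, adjusted p = 0.0326) and array weights (-0.32, adjusted p = 0.0379).

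**Figure D3:**
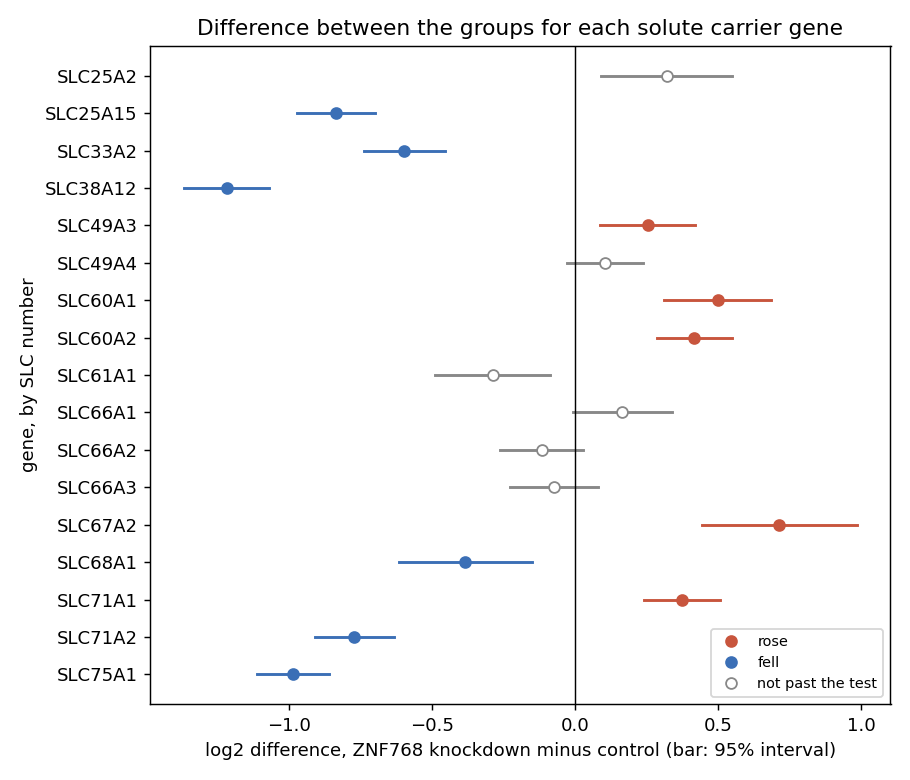
Log2 difference between ZNF768 knockdown and control (x axis) with its 95% interval (bars) for each of the 17 carriers (y axis, in order of SLC number), from limma over 6 arrays. Red marks 5 genes that rose, blue 6 that fell and open grey the 6 short of the threshold. The extremes are SLC38A12 at -1.22 and SLC67A2 at 0.71.

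**Figure D4:**
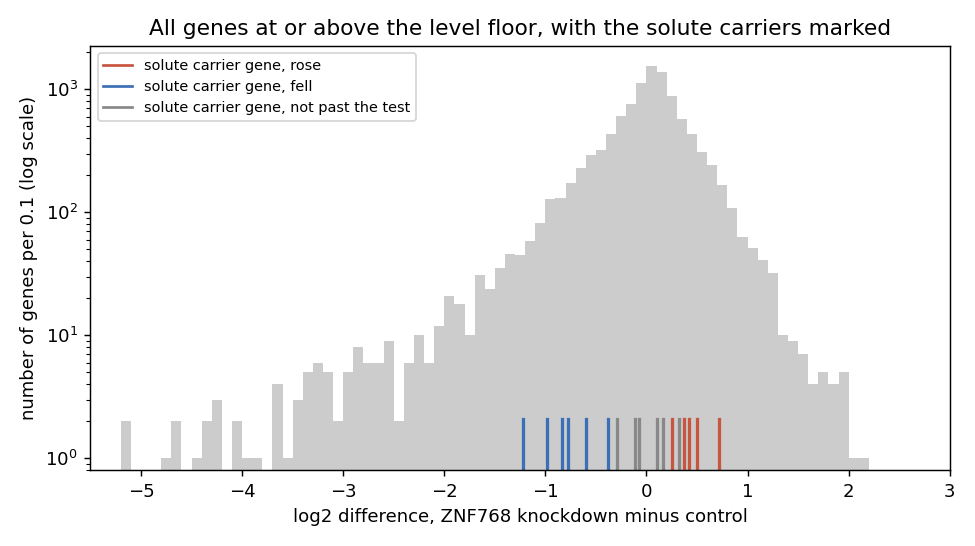
Number of genes (y axis, log scale) by log2 difference between ZNF768 knockdown and control (x axis, steps of 0.1) for all 10590 named genes at or above the median level. Coloured ticks mark the carriers (red rose, blue fell, grey not past the test) and their height has no meaning; the 17 lie between SLC38A12 at -1.22, place 335 by fall, and SLC67A2 at 0.71, place 484 by rise.

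Promoters of 14 of the 17 genes were at hand, from RefSeq on GRCh38.p14, each from 250 bases before to 50 bases after an annotated start, and they held 5 of the genes that rose and 5 of those that fell. SLC75A1 had 2 entries, and the one listed first was used. They are shown for the SLC71 paralogs that moved apart and for the carriers with the largest fall and the largest rise. Capitals mark the GC box GGGCGG and the CCAAT box, on either strand, where GGGCGG reads CCGCCC on the other strand and CCAAT reads ATTGG. SLC71A1 lies at chr1:100037845-100038144 on the plus strand, SLC71A2 at chr9:94374319-94374618 on the plus strand, SLC38A12 at chr17:74776249-74776548 on the plus strand and SLC67A2 at chr2:102736839-102737138 on the minus strand.
SLC71A1: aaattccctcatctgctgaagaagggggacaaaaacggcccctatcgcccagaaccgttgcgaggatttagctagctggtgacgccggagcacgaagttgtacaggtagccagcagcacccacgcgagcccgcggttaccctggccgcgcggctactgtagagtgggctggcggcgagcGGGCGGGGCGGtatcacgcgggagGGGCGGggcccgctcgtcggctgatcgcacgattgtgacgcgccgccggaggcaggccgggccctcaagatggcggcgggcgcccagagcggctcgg
SLC71A2: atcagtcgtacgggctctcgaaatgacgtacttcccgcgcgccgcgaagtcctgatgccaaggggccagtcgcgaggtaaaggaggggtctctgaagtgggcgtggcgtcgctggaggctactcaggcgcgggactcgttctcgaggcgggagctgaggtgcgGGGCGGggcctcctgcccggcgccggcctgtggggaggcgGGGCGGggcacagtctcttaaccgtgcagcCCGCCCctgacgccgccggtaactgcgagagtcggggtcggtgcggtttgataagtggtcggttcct
SLC38A12: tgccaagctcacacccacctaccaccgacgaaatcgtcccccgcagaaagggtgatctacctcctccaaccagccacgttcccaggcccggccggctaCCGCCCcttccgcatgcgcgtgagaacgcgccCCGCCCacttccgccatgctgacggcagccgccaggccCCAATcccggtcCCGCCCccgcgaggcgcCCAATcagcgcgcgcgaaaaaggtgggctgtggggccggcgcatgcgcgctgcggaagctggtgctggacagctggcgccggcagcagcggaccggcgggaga
SLC67A2: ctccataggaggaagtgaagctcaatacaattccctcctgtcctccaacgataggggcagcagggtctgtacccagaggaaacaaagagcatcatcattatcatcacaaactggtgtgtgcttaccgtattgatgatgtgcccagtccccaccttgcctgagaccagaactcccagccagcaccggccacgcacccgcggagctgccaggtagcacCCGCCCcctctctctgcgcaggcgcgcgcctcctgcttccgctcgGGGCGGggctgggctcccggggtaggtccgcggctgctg

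The 4 windows shown hold 2 or 3 GC boxes each, counting overlapping matches, and SLC38A12 also holds the CCAAT box in 2 places. Over the 14 promoters the GC content had a median of 71.8%, from 58.7% to 83.3%, beside 65% over the 8183 genes at or above the level that have a promoter and 58.3% over all 27305 genes. In all, 8 motifs were searched on both strands, and the GC box and the TATA box were added after the other 6 had been seen to give few matches. The GC box was in 13 of 14 carrier promoters (92.9%, against 68.1% of the genes at or above the level), in 4 of 5 that rose and in 5 of 5 that fell, so it did not separate the directions. The TATA box TATAAA was in 0 of 14 (6.09% of the genes at or above the level). The E-box CACGTG was in 2 (14.3%, against 9.98%), the CCAAT box in 3 (21.4%, against 36.4%) and the E2F site TTTGGCGC or TTTCCCGC in 1 (7.14%, against 3.42%). The cell cycle element CHR, TTTGAA, was in 0 (9.78% of the genes at or above the level). Of the 2 parts searched of the sequence that ZNF768 is known to bind, GCTGTGTG was in 0 (1.8%) and CCTCTCTG in 1, SLC49A4 (7.14%, against 3.24%), a gene that did not pass the test. A match in such a window is a description of its letters.

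Transporters that the platform's annotation names by a symbol of another form were counted at the same level. Of 17 at or above the level, 3 rose, 5 fell and 9 stayed short of the threshold, beside 21.7% and 22.6% of all genes at that level, and the median difference was 0.02 against 0.04. These counts are near the shares over all genes. SFXN3, a sideroflexin of the mitochondrial inner membrane, rose from 9.17, 9.30 and 9.17 to 10.66, 10.61 and 10.59 (1.41, SE 0.0618, limma adjusted p = 4.65e-05), further than any of the 17 carriers. Its relative SFXN4 rose by 0.40 and SFXN2 fell by 0.61, while SFXN1 (0.15) and SFXN5 (-0.24) did not pass the test. XPR1, the phosphate exporter of the plasma membrane, fell from 10.44, 10.48 and 10.57 to 9.40, 9.31 and 9.44 (-1.12, SE 0.0652, limma adjusted p = 0.000118). The subunits of the mitochondrial pyruvate carrier went apart, since MPC1 rose by 0.44 and MPC2 fell by 0.23, both past the test. MFSD11 (-0.31) and the mitochondrial outer membrane protein MTCH1 (-0.27) fell. Of the membrane partners of carriers at or above the level, ARL6IP5, a regulator of a glutamate carrier, rose by 0.56, neuroplastin (NPTN) fell by 0.65 and basigin (BSG), the partner of lactate carriers, differed by 0.12 without passing the test.

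Amino acid carriers are known targets of the ATF4 response to amino acid shortage, so 16 other genes of that response were counted. Of these 6 rose, 4 fell and 6 missed the threshold, beside 21.7% and 22.6% of all genes at that level, and the median difference was 0.09 against 0.04. DDIT3 (1.03), ATF3 (0.88), TRIB3 (0.49), VLDLR (0.41), SHMT2 (0.36) and ATF4 itself (0.29) rose. ASNS, the asparagine synthetase (-0.62), PHGDH, the first enzyme of serine synthesis (-0.81), DDIT4 (-1.28) and WARS1 (-0.20) fell. CHAC1, CEBPB, MTHFD2, CEBPG and NUPR1 were also on the planned list but had no probeset named here.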

How the data were processed

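RNA of 3 control and 3 ZNF768 depleted U87 samples was measured on Affymetrix Human Gene 2.0 ST arrays. The deposited values are log2 expression values per probeset, made by the authors with RMA in oligo, whose versions are not given in the sources used here. RMA corrects the background, makes the arrays' distributions alike and summarises probes, so that a shift shared by all genes cannot be seen. Background per probeset is unknown here. Of 53617 probesets, 16098 had a gene symbol in the platform's annotation and 37519 were unnamed here, and the brightest probeset stood for a gene; each of the 17 carriers had 1.

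Groups were compared with limma 3.58.1 in R 4.3.3 (lmFit, eBayes, no covariate) over all probesets, with Benjamini-Hochberg adjustment and a threshold of 0.05, after a test on simulated data. Paralogs were compared with exact two-sided permutation tests (SciPy 1.17.1), and tables were joined in Python 3.11.15 with pandas 2.3.3. The p-values measure the spread between cultures of a single line. The carriers and lists were chosen with earlier results of these data known. Planned for naming were the called carriers, their paralogs with the same SLC number and the carriers nearest the level. A fixed list of 22 well-known carriers was also planned, and 0 of them had a probeset named here. The SLC66 genes and SLC61A1 were named after their values were seen, to account for all. A grouping by substrate class was planned, but SLC67, SLC68, SLC71 and SLC75 had no class there, so genes were grouped by SLC number. The lists of ABC transporters and sodium pump subunits had 0 genes named here. Among alternatives were other scalings, floors and probeset rules, a replicate block and left-out samples.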

Additional observations from a re-analysis of the deposited data

How the results depend on the processing

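Over 22 alternatives, none of the 372 values of single carriers changed direction, 343 kept direction and call, 20 lost the call and 9 gained it. A carrier's difference could change only with other scalings, array weights and left-out samples. Thresholds, floors, probeset rules, the eBayes options and the replicate block left it as it was, so there the direction could not change. With the other floors, the update of symbols and the dimmest probeset of a gene, the adjusted p was also that of the main fit. The call could not change under these settings either, and their values are among the 343. Asking for a 1.5-fold difference left 1 carrier that rose and 5 that fell, since SLC49A3, SLC60A1, SLC60A2 and SLC71A1 rose by less. Leaving out 1 sample in turn gave 4 to 5 that rose, 5 to 6 that fell and medians of -0.107 to -0.0278, the latter without ZNF768 knockdown replicate 2. With the replicate number as a block, 4 rose and 5 fell, with the median at -0.07, and SLC49A3 (adjusted p = 0.118) and SLC68A1 (0.0822) were lost. Correlations between samples of the same number were -0.07 to 0.02. With 3 samples per group, such values cannot show whether samples of the same number were paired. The paper's reporting summary says that treatment groups of an experiment came from a shared plate of cells, and the labels give no pairing. A floor at the 60th percentile kept 15 carriers, of which 4 rose and 6 fell. SLC25A2 also gained the call with named probesets only (adjusted p = 0.0239) and with probesets below the median left out (0.0224). Since each carrier had 1 probeset, the rules for genes with several probesets and the update of symbols could not change a carrier's difference, and they changed no call. No scanner files were analysed here, so background correction and scan batches were not examined, and signal over background is unknown for the dim SLC25A2 and SLC60A1.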

Other observations

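The study's supplementary table gave names for 18 further carriers whose probesets the platform's annotation leaves unnamed here. The table as given holds only its largest rises and could not name a carrier that fell, so these genes were chosen by their difference, are outside every count above and have no test. Of the 17 at or above the median level, the folds ran from 1.54 to 2.81. SLC9A9, a sodium-proton exchanger of endosomes, was at 8.18, 8.06 and 8.12 in control samples and at 9.55, 9.68 and 9.61 in ZNF768 depleted samples, a difference of 1.49. SLC17A5 (sialin), which exports sialic acid from lysosomes, differed by 1.48, and its 3 control values were equal at 9.1312. The bicarbonate carrier SLC4A5 differed by 1.48. Its control mean of 6.27 lay under the median level of 6.42, so it reached that level only through the ZNF768 depleted samples. The same held for SLC16A14, with a control mean of 6.28. The monocarboxylate carrier family member SLC16A6 differed by 1.13, from 9.67, 9.64 and 9.68 to 10.73, 10.88 and 10.77. In mitochondria, the carnitine-acylcarnitine carrier SLC25A20 differed by 1.12 and the calcium-regulated ATP-Mg/phosphate carrier SLC25A24 by 0.93. SLC41A2, of a family of magnesium carriers, differed by 1.17. Each of these was higher in 3 of 3 depleted samples than in any control sample, which the choice of genes favours.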
